A study of Mus musculus with 9 samples.

Results

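The cadherin and catenin RNA of lineage-traced mammary cells was described here through 10 genes chosen by name, out of 55450 genes in the count table. They were the classical type I cadherins Cdh1, Cdh2, Cdh3 and Cdh4, the type II cadherins Cdh6 and Cdh11, the membrane-anchored cadherin Cdh13, and the catenins Ctnna1, Ctnnb1 and Ctnnd1. RNA was sequenced from EYFP+ live cells sorted by FACS from the mammary glands of adult nulliparous mice, in 3 groups of 3 libraries. Control mice carried the lsl-EYFP reporter and K8CreERT2 with no floxed gene, LATS1/2-KO mice carried LATS1/2f/f in addition, and LATS1/2-Sox9-KO mice carried both LATS1/2f/f and Sox9f/f. All 3 groups shared the reporter, the Cre driver and the tamoxifen, which was given as 5 doses of 2 mg, and cells were taken 7 days after the last dose. K8CreERT2 is a Cre recombinase driven by the Krt8 promoter and switched on by tamoxifen, so EYFP marks cells in which Krt8 was active at induction, and their descendants. Libraries held from 44167762 to 47003587 counts in control, from 50508666 to 61745346 in LATS1/2-KO and from 55503365 to 61967651 in LATS1/2-Sox9-KO. Nothing in the sources used here says that the 3 libraries of a group came from separate mice, so the p-values measure the spread between libraries. In such bulk samples, fewer cells of a type and less RNA per cell cannot be told apart.

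Classical cadherins are single-pass membrane proteins that bind their like on the neighbouring cell and hold epithelial sheets together at adherens junctions. Their cytoplasmic tail binds beta-catenin (Ctnnb1) at its end and delta-1 catenin (Ctnnd1) next to the membrane, and alpha-catenin (Ctnna1) ties the complex to actin. Beta-catenin is also the transcriptional effector of canonical Wnt signalling. In the mammary gland E-cadherin (Cdh1) is the main cadherin of luminal cells, P-cadherin (Cdh3) is best known from the basal, myoepithelial layer, and N-cadherin (Cdh2) and cadherin-11 (Cdh11) are better known from neural and mesenchymal cells.

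The ends of 4 coding sequences are shown because the tail that binds beta-catenin lies there in classical cadherins. Those of Cdh2, Cdh4 and Cdh6 are not shown, so the 4 do not tell which of the 7 cadherins share it. Each is the last 60 coding bases, stop codon included, 5′ to 3′ on the coding strand in GRCm38 (mm10), from GENCODE transcripts. Capitals mark bases identical to Cdh1, after a shift of at most 15 bases chosen to give the most matches.
Cdh1: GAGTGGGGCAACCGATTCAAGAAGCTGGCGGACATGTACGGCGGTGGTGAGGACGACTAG
Cdh3: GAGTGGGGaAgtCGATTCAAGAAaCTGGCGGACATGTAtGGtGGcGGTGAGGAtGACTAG
Cdh11: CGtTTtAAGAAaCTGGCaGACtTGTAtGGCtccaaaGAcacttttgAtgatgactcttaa
Cdh13: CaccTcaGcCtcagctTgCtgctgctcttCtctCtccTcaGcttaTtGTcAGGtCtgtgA
The Cdh1 end lies at chr8:106668556-106668615 on the plus strand and the Cdh3 end at chr8:106555391-106555450 on the same strand, and 52 of the 60 bases of Cdh3 were identical to Cdh1. The Cdh11 end (chr8:102634314-102634373, minus strand) matched at 27 of 60 bases, most of them in its first part. The Cdh13 end is split over 2 exons (chr8:119314143-119314194 and chr8:119323395-119323402, plus strand) and matched at 18 of 60 bases. Cdh13 encodes a protein held by a glycosylphosphatidylinositol anchor, with no cytoplasmic tail to bind a catenin. Over whole coding sequences the 21 pairs of the 7 cadherins were between 59.6% and 68.0% identical in aligned bases, and the longest run of identical bases in any pair was between 12 and 26 bases, so long stretches that a read could share between cadherin genes were not found in coding sequence.

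The targeted genes were read first as a check of the labels. Lats1 had 5672, 5929 and 5940 normalised counts in the control libraries, 2090, 1923 and 2336 in LATS1/2-KO and 2058, 1844 and 1709 in LATS1/2-Sox9-KO, where a normalised count is the deposited count rescaled so that all libraries have 1 common effective size. Lats1 fell in both, with log2 fold changes of -1.47 (SE 0.11) and -1.64 (SE 0.11) (edgeR adjusted p = 7.07e-06 and 2.80e-06). Lats2 did not fall, and it was called higher in LATS1/2-Sox9-KO (log2 fold change 0.61, SE 0.20, edgeR adjusted p = 0.0240). It had a mean of 1041 ± 177 (SD, n = 3) normalised counts in control, 1471 ± 236 in LATS1/2-KO and 1592 ± 359 in LATS1/2-Sox9-KO, so that the knockout names below are those of the libraries' labels. The table has 1 count per gene, exons inside and outside the floxed part were summed, and 42.4% of the exon bases of Lats2 are also annotated to Gm49361 on the same strand. Sox9, a transcription factor of luminal progenitors, had a mean of 21598 ± 1683 normalised counts in control, 9715 ± 2620 in LATS1/2-KO and 7343 ± 1281 in LATS1/2-Sox9-KO, so that it fell in both knockout groups (log2 fold changes -1.15 and -1.56, edgeR adjusted p = 0.000682 and 9.39e-05). The knockout groups were not told apart by it (log2 difference -0.40, SE 0.19, edgeR adjusted p = 0.250).

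The luminal label was checked on Krt8, Krt18 and Epcam, which were abundant in every library, and then on a list of 13 luminal markers. Krt18 had at least 239710 normalised counts in any library and Epcam at least 44462. The keratins rose and Epcam fell in both knockout groups. Against control, Krt8 changed by 0.58 (SE 0.12) and 1.26 (SE 0.12) on the log2 scale and Epcam by -0.74 (SE 0.10) and -1.30 (SE 0.11) in LATS1/2-KO and LATS1/2-Sox9-KO (edgeR adjusted p = 0.00186, 1.35e-05, 0.000215 and 6.18e-06). Of all 13 markers 2 rose (Krt8 and Krt18) and 7 fell in LATS1/2-KO, and 3 rose and 8 fell in LATS1/2-Sox9-KO. Among all genes tested, edgeR called 28.7% higher and 27.1% lower in LATS1/2-KO and 29.3% higher and 28.7% lower in LATS1/2-Sox9-KO, and every marker count below is to be read against these shares. The progesterone receptor gene Pgr fell from 22685 ± 6622 to 379 ± 269 and 34.7 ± 16.3 normalised counts, and the estrogen receptor gene Esr1 from 9731 ± 2549 to 862 ± 395 and 764 ± 157 (edgeR adjusted p = 2.99e-05, 4.48e-06, 1.93e-05 and 1.13e-05). Foxa1 fell from 21672 ± 3061 to 1839 ± 871 and 1582 ± 549, and Gata3 from 13026 ± 522 to 2478 ± 819 and 2531 ± 566 (edgeR adjusted p = 4.79e-05, 2.79e-05, 2.24e-05 and 1.84e-05). Elf5, a transcription factor of alveolar luminal cells, was not called in LATS1/2-KO (log2 fold change -0.35, edgeR adjusted p = 0.427) and fell in LATS1/2-Sox9-KO (-1.45, edgeR adjusted p = 0.00558). The surface marker gene Prom1 fell from 23948 ± 14871 to 971 ± 1050 and 265 ± 68.8 (edgeR adjusted p = 0.000724 and 0.000133). Of the 13 markers, 4 were not called in LATS1/2-KO and 2 were not called in LATS1/2-Sox9-KO. The claudin gene Cldn3 had 26162, 24308 and 19941 normalised counts in control and 21761, 35285 and 36240 in LATS1/2-KO. In LATS1/2-Sox9-KO it had 41595, 33192 and 27964, all above control. The keratin and Epcam levels thus showed epithelial RNA in all libraries.

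Of the 10 cadherin and catenin genes, 8 passed the filter on low counts and were tested. The control libraries alone did not carry Cdh11 past that filter, and the counts below include it. Against control, LATS1/2-KO libraries had 4 of these 8 genes higher (Cdh2, Cdh3, Cdh11 and Ctnna1), 1 lower (Cdh1) and 3 not past the threshold (Cdh13, Ctnnb1 and Ctnnd1). Among all 19357 genes tested, 55.7% were called at an adjusted p of at most 0.05 by edgeR's quasi-likelihood test, 28.7% higher and 27.1% lower, so that 5 of 8 is close to the background share and is no result about these genes as a group. The libraries of the groups did not overlap for the same 5 genes, beside 61.6% of all genes. The median log2 fold change was 0.72 over the 8 genes and 0.04 over all genes. LATS1/2-Sox9-KO libraries had 4 of 8 genes higher than control (again Cdh2, Cdh3, Cdh11 and Ctnna1) and none lower, beside 57.9% of all genes called (29.3% higher and 28.7% lower), and the medians were 0.42 and 0.01. Libraries did not overlap for 5 of the 8 (these 4 and Ctnnb1, which lay lower), beside 68.8% of all genes. Both comparisons use the same 3 control libraries. Between the knockout groups none of the 8 was called by edgeR, beside 6.45% of all genes (3.13% higher and 3.33% lower). In that fit across all genes 2 of them, Cdh2 and Cdh3, had an unadjusted p under 0.05, and DESeq2 called 1, Cdh3. Libraries did not overlap for 4 of the 8 (Cdh3 higher, Cdh2, Ctnna1 and Ctnnb1 lower), beside 27.9% of all genes.

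**Figure D1:**
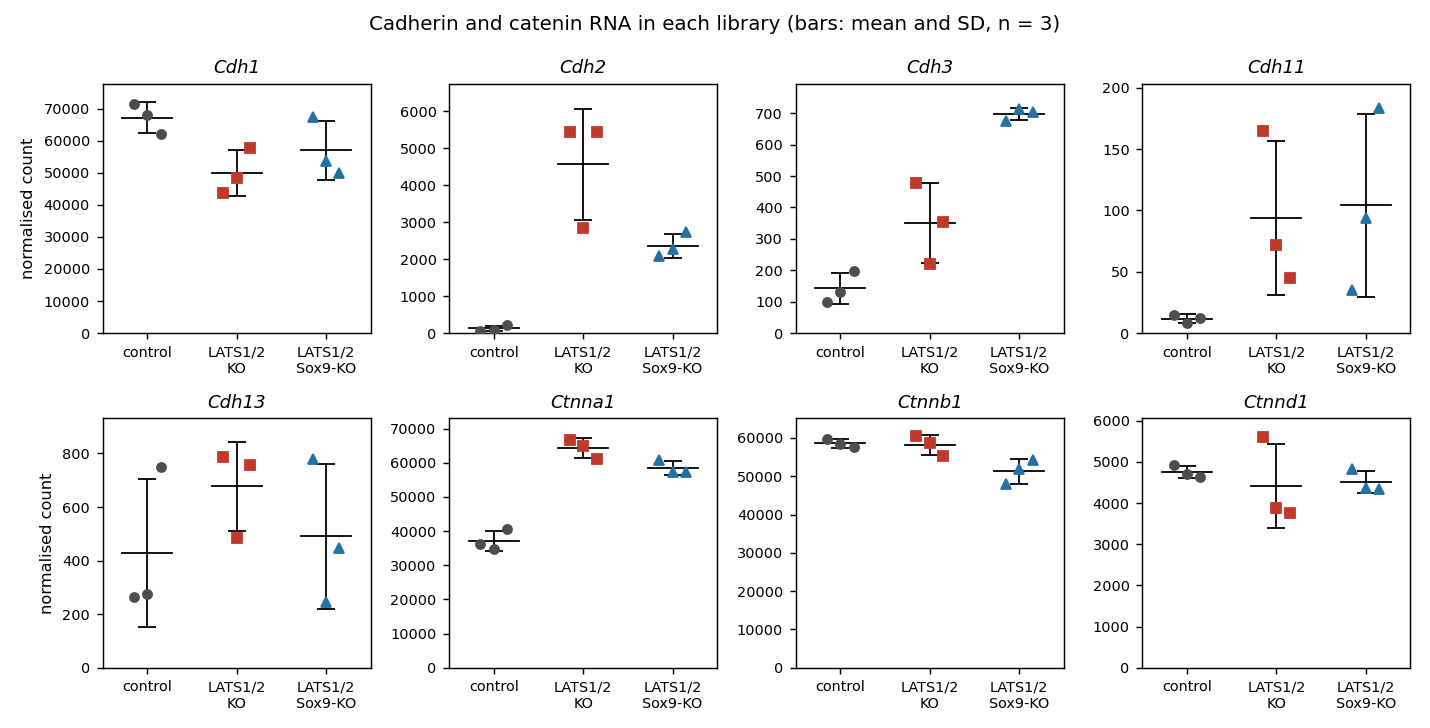
Normalised count (vertical axes, from 0) of the 8 tested cadherin and catenin genes in each library of the 3 groups (horizontal axes); points are libraries and bars are the mean and SD of 3. Every knockout library lies above every control library for Cdh2, Cdh3, Cdh11 and Ctnna1, while Cdh13 and Ctnnd1 overlap between all groups.

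Cdh1, E-cadherin, was the cadherin with the highest level per kb in every library. It had 71579, 67988 and 62146 normalised counts in control, 43619, 48261 and 57910 in LATS1/2-KO and 67453, 53828 and 49916 in LATS1/2-Sox9-KO. All LATS1/2-KO libraries lay below all control libraries, whereas LATS1/2-Sox9-KO libraries reached into both other groups. Cdh1 fell in LATS1/2-KO to 0.743 times the control mean (log2 fold change -0.43, SE 0.15, edgeR adjusted p = 0.0288). The difference of LATS1/2-Sox9-KO from control was -0.24 (SE 0.15, edgeR adjusted p = 0.189) and its difference from LATS1/2-KO was 0.19 (SE 0.15, edgeR adjusted p = 0.480), on the log2 scale. The Cdh1 call was made in 9 of 14 alternatives, leaving aside a test against a fold change of 2. Leaving out any 1 of 4 libraries ended it, namely control library 1 (edgeR adjusted p = 0.0882), control library 2 (0.0686), LATS1/2-KO library 1 (0.0934) and LATS1/2-KO library 2 (0.0706). The log2 fold changes were then -0.38, -0.42, -0.34 and -0.42 in that order, beside -0.43 in the main fit. A replicate block, given below, was the other alternative that ended the call. The luminal markers above are to be read beside Cdh1. Krt18 was the most abundant and rose, so their sum does not show the falls, and none was at 0 in all libraries. Their summed normalised count was between 978030 and 1122300 in control, between 1005000 and 1030100 in LATS1/2-KO and between 1415600 and 1685200 in LATS1/2-Sox9-KO, and their part in the Cdh1 result was not tested. Cdh1 lies on chromosome 8 at 106603351 to 106670246 in mm10, and no other annotated gene shares its exons.

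Cdh2, N-cadherin, had the largest change of the 8 tested genes against control. It had 65.0, 94.1 and 212 normalised counts in the control libraries, 5427, 2832 and 5431 in LATS1/2-KO and 2070, 2284 and 2722 in LATS1/2-Sox9-KO. The 3 groups did not overlap, with control lowest and LATS1/2-KO highest. Cdh2 rose 36.9-fold in LATS1/2-KO by group means (log2 fold change 5.21, SE 0.45, edgeR adjusted p = 1.12e-05) and 19.1-fold in LATS1/2-Sox9-KO (4.26, SE 0.43, edgeR adjusted p = 2.17e-05). Without control library 3, which had the highest Cdh2 of its group, these log2 fold changes were 5.82 and 4.90. The level in LATS1/2-Sox9-KO was 0.517 times that in LATS1/2-KO (log2 difference -0.95, SE 0.37), which did not pass the test (edgeR adjusted p = 0.158). The libraries of these groups did not overlap.

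Cdh3, P-cadherin, was lowest in control and highest in LATS1/2-Sox9-KO. Its normalised counts were 98.6, 132 and 197 in control, 477, 221 and 354 in LATS1/2-KO, and 675, 713 and 705 in LATS1/2-Sox9-KO. No library of any group lay within the range of another group, and the LATS1/2-Sox9-KO libraries were the closest to each other. Cdh3 rose 2.47-fold in LATS1/2-KO (log2 fold change 1.30, SE 0.32, edgeR adjusted p = 0.00569) and 4.91-fold in LATS1/2-Sox9-KO (2.29, SE 0.32, edgeR adjusted p = 0.000190). The mean in LATS1/2-Sox9-KO was 1.99 times that in LATS1/2-KO, and this difference was at the edge of the test (log2 difference 0.99, SE 0.31, edgeR adjusted p = 0.0872). It was called in 3 of 14 alternatives, namely by DESeq2 (adjusted p = 0.0175), without a filter on low counts (edgeR adjusted p = 0.0452) and without LATS1/2-KO library 1 (edgeR adjusted p = 0.0348).

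Markers of the basal, myoepithelial layer, from which Cdh3 is best known, moved in both directions beside it. Of 10 such markers, all tested, 5 rose and 3 fell in LATS1/2-KO and 4 rose and 5 fell in LATS1/2-Sox9-KO, beside 55.7% and 57.9% of all genes called. Their summed normalised count was 5509, 6779 and 5821 in control, 271310, 164140 and 158320 in LATS1/2-KO, and 160170, 282560 and 387670 in LATS1/2-Sox9-KO. Krt14, a basal keratin, was the most abundant and made up most of that sum in the knockout groups, with a mean of 672 ± 212 normalised counts in control, 177580 ± 65294 in LATS1/2-KO and 235580 ± 116360 in LATS1/2-Sox9-KO. The defining basal factor Trp63 fell, from 1553 ± 1022 in control to 54.9 ± 14.8 and 85.3 ± 45.8 normalised counts. None of the 10 was at 0 in all libraries. The part of basal cells in the Cdh3 result was not tested.

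Cdh11, a type II cadherin of mesenchymal cells, was rare but higher in both knockout groups. Its raw counts were 13, 7 and 10 in control, 164, 85 and 49 in LATS1/2-KO, and 38, 94 and 201 in LATS1/2-Sox9-KO. Each knockout library exceeded each control library, and the libraries within a knockout group differed from each other more than the knockout groups did. Cdh11 rose by 2.97 (SE 0.70) on the log2 scale in LATS1/2-KO and by 3.13 (SE 0.71) in LATS1/2-Sox9-KO. The control libraries alone did not carry it past the filter on low counts, so the p-values of these rises are not given. Both rises are counted above among the genes called higher. The knockout groups differed by 0.15 (SE 0.62, edgeR adjusted p = 0.918). Without the highest library of each knockout group, LATS1/2-KO library 1 and LATS1/2-Sox9-KO library 3, the rises against control were 2.30 and 2.45.

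Fibroblast markers were read beside Cdh11 and Cdh2 because fibroblasts express both. The summed normalised count of 9 fibroblast markers was 2522, 4431 and 9690 in control, 10481, 2690 and 3393 in LATS1/2-KO, and 3007, 4282 and 7799 in LATS1/2-Sox9-KO. LATS1/2-KO library 1 and LATS1/2-Sox9-KO library 3 had the highest sums of their groups and also the most Cdh11. Control library 3, with the second highest sum of all, had 12.4 normalised counts of Cdh11. In LATS1/2-KO 4 of the 9 markers rose and 1 fell, and in LATS1/2-Sox9-KO 3 rose and 2 fell, which is 55.6% called in each and near the 55.7% and 57.9% of all genes. Dcn (decorin), the most abundant over all 9 libraries, fell from 4360 ± 3397 to 923 ± 555 and 158 ± 152 normalised counts, while the collagen gene Col3a1 rose from 228 ± 189 to 2006 ± 1805 and 1880 ± 1109. None of the 9 was at 0 in all libraries. For Cdh2, the order of the libraries was that of the fibroblast sums within control and within LATS1/2-Sox9-KO. In LATS1/2-KO the library with the lowest sum, library 2, also had the lowest Cdh2, and libraries 1 and 3 had nearly the same Cdh2 at sums of 10481 and 3393. The part of fibroblasts in either result was not tested.

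Cdh13, T-cadherin, was not called in any comparison. It had 266, 274 and 749 normalised counts in control, 788, 486 and 758 in LATS1/2-KO, and 781, 245 and 446 in LATS1/2-Sox9-KO. Control library 3 lay within the range of the LATS1/2-KO libraries and the other two did not. The log2 fold change in LATS1/2-KO was 0.66 (SE 0.48, edgeR adjusted p = 0.276), and without control library 3 it was 1.31 and past the threshold (edgeR adjusted p = 0.0329). In LATS1/2-Sox9-KO it was 0.19 (SE 0.48, edgeR adjusted p = 0.753), and from -0.29 to 0.87 with 1 library left out, so its sign was not fixed. Between the knockout groups it was -0.46 (SE 0.48, edgeR adjusted p = 0.628). Cdh13 is also known from endothelium, and of 8 endothelial markers 1 rose and 0 fell in LATS1/2-KO and 1 rose and 1 fell in LATS1/2-Sox9-KO, while their summed normalised count lay between 310 and 908 in all libraries, with none at 0 throughout. Pecam1 was the most abundant over all 9 libraries together, and Kdr exceeded it in LATS1/2-Sox9-KO libraries 1 and 2. The part of endothelial cells was not tested.

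Cdh4, R-cadherin, and Cdh6, K-cadherin, were at the edge of detection. Cdh4 had at most 2 counts and Cdh6 at most 11 in any library, and neither passed the filter in any comparison. A count of 0, as in 5 of 9 libraries for Cdh4 and 4 of 9 for Cdh6, allows up to 3 counts in that library, in counting error alone, and no difference was tested for either gene.

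Ctnna1, alpha-catenin, was the one catenin of the 3 that was called. It had 36200, 34863 and 40491 normalised counts in control, 66769, 65071 and 61059 in LATS1/2-KO, and 60844, 57309 and 57182 in LATS1/2-Sox9-KO. Control lay well below both knockout groups, and LATS1/2-Sox9-KO lay just below LATS1/2-KO without overlap. Ctnna1 rose 1.73-fold in LATS1/2-KO (log2 fold change 0.79, SE 0.10, edgeR adjusted p = 9.43e-05) and 1.57-fold in LATS1/2-Sox9-KO (0.65, SE 0.10, edgeR adjusted p = 0.000268). The difference between the knockout groups was -0.14 (SE 0.10, edgeR adjusted p = 0.444) on the log2 scale. The rise stayed under a doubling, and a test against a fold change of 2 did not call it in either group. Of its exon bases 1.48% overlap Lrrtm2 on the other strand.

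Ctnnb1, beta-catenin, was not called in any comparison. Its normalised counts were 59806, 58342 and 57621 in control, 60556, 58553 and 55361 in LATS1/2-KO, and 47875, 51779 and 54299 in LATS1/2-Sox9-KO. LATS1/2-KO spanned the control range, and LATS1/2-Sox9-KO lay below both other groups without overlap. The log2 fold change was -0.01 (SE 0.09, edgeR adjusted p = 0.932) in LATS1/2-KO and -0.19 (SE 0.09, edgeR adjusted p = 0.101) in LATS1/2-Sox9-KO, and that between the knockout groups was -0.18 (SE 0.09, edgeR adjusted p = 0.283). Of its exon bases 14.6% overlap Ulk4 on the opposite strand, and the strand setting matters there. The methods state counting on the same strand, whereas the kit named is one that does not mark strand. Which held was not tested, so the share of Ulk4 reads in the Ctnnb1 count is unknown.

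Ctnnd1, delta-1 catenin, which binds next to the membrane and holds cadherins at the surface, was not called in any comparison. It had 4925, 4703 and 4631 normalised counts in control, 5604, 3893 and 3758 in LATS1/2-KO, and 4834, 4368 and 4348 in LATS1/2-Sox9-KO. LATS1/2-KO library 1 stood above all others and the rest of its group below all others. The log2 fold change was -0.11 (SE 0.15, edgeR adjusted p = 0.576) in LATS1/2-KO and -0.07 (SE 0.15, edgeR adjusted p = 0.695) in LATS1/2-Sox9-KO. Without LATS1/2-KO library 1 it was -0.31 and past the threshold (edgeR adjusted p = 0.0246), and without LATS1/2-KO library 3 it was 0.01. Between the knockout groups the log2 difference was 0.03 (SE 0.15, edgeR adjusted p = 0.930). In the annotation used here 61.2% of its exon bases also belong to Gm28635 on the same strand, which had 0 counts in every library, and reads there cannot be assigned to one of the genes, so its level per kb of all exons may be understated.

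**Figure D2:**
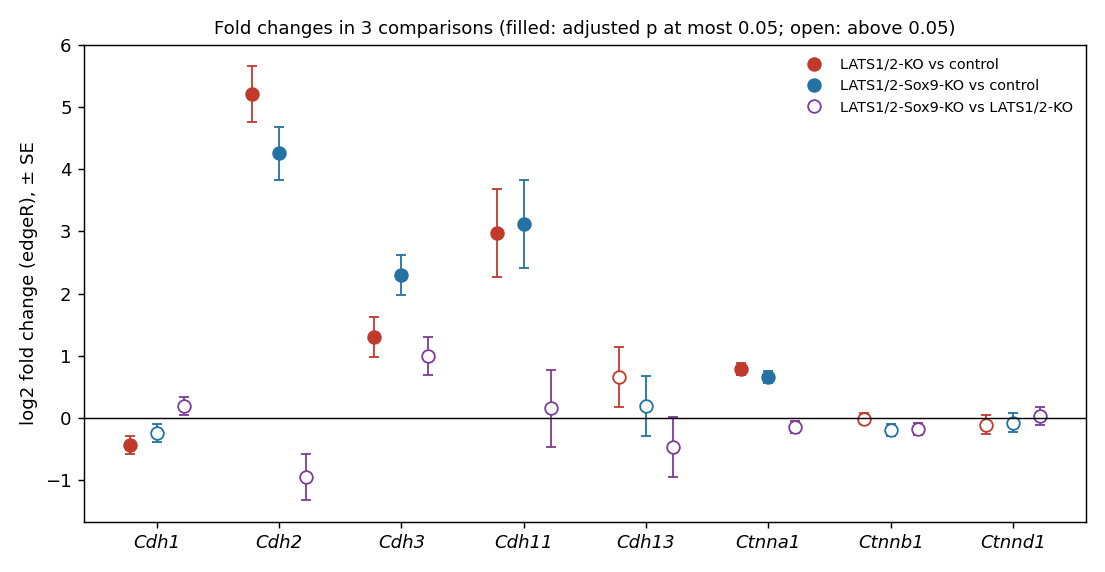
Log2 fold change from edgeR (vertical axis, with SE bars) of the 8 tested genes in the 3 comparisons; filled points passed an adjusted p of 0.05 and open points did not. Cdh2 has the largest rise, at 5.21 and 4.26 against control, and no point of the comparison between the knockout groups is filled.

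Levels were compared between genes only per kb of annotated exon. In control, Cdh1 was highest at 14700 ± 1041 normalised counts per kb (SD, n = 3), followed by Ctnnb1 at 11285 ± 214 and Ctnna1 at 5788 ± 458, with no overlap between neighbours. Ctnnd1 came next at 649 ± 20.9, or 1675 ± 54.0 when only exon bases not shared with Gm28635 were counted as length. The remaining cadherins were far lower, Cdh13 at 38.3 ± 24.6, Cdh3 at 32.4 ± 11.4 and Cdh2 at 15.3 ± 9.62 per kb, and neighbours in that order overlapped. Cdh11 was at 1.33 ± 0.406 per kb.

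In LATS1/2-KO the order changed at the top and in the middle. Ctnnb1 (11201 ± 505 normalised counts per kb), Cdh1 (10916 ± 1594) and Ctnna1 (10008 ± 456) overlapped in turn, and Cdh2 reached 566 ± 186 beside Ctnnd1 at 604 ± 141, with overlap. Over exons not shared with Gm28635 Ctnnd1 was at 1557 ± 363 per kb and clear of Cdh2. Cdh3 and Cdh13 came after Cdh2 and overlapped each other, with Cdh13 at 60.3 ± 14.8 normalised counts per kb. In LATS1/2-Sox9-KO Cdh1 was again above Ctnnb1 without overlap, at 12476 ± 2013 and 9884 ± 623 per kb. Cdh2 was at 292 ± 41.2 and Cdh3 at 159 ± 4.63 per kb there, both clear of their neighbours by this length. With the longest transcript as the length in place of all exons, Ctnnb1 rather than Cdh1 came first in control and Ctnna1 came first in both knockout groups, with overlap of the first and second gene in control and LATS1/2-KO but not in LATS1/2-Sox9-KO, so the order among the top 3 depends on the length used. The middle order did too, since with the longest transcript Cdh2 (942 ± 310 normalised counts per kb) lay above Ctnnd1 (694 ± 162) and Cdh13 above Cdh3 in LATS1/2-KO by their means, with overlap in both pairs, and Cdh3 and Cdh13 overlapped in LATS1/2-Sox9-KO.

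**Figure D3:**
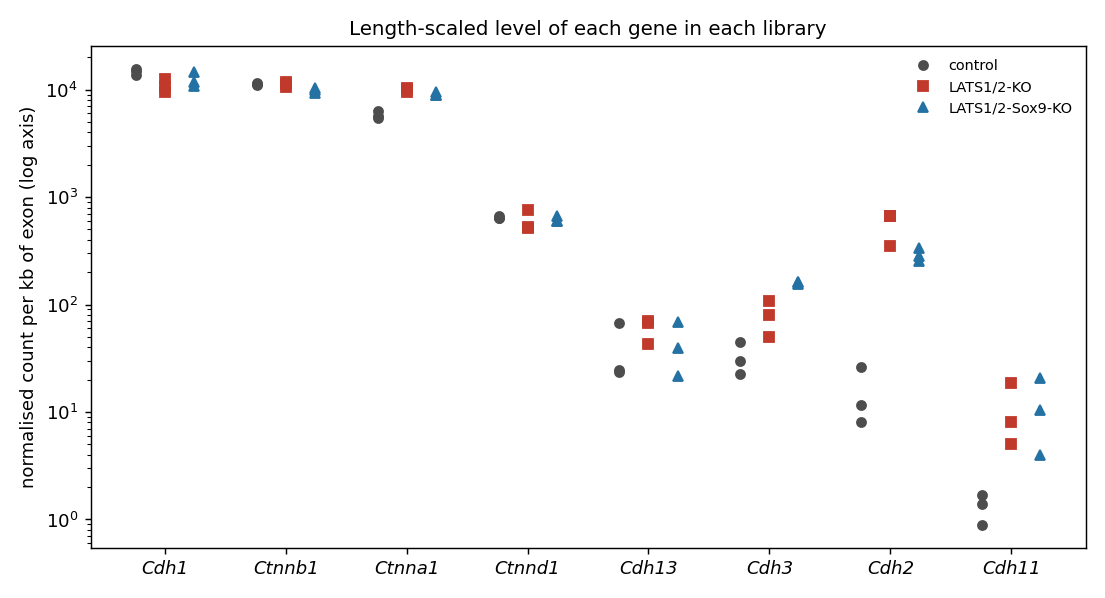
Normalised count per kb of exon (log vertical axis) of 8 genes in each of the 9 libraries, with the genes on the horizontal axis in the order of their mean level in control. Cdh2 moves from near the bottom in control to above Cdh3 and Cdh13 in LATS1/2-KO, while Cdh1, Ctnnb1 and Ctnna1 stay at the top in all groups.

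E-cadherin was most of the cadherin RNA in all groups. Cdh1 made up 99.4% ± 0.354 (SD, n = 3) of the summed per-kb level of the 7 cadherins in control, 93.8% ± 2.12 in LATS1/2-KO and 96.0% ± 0.849 in LATS1/2-Sox9-KO. Cdh2 took 0.107% ± 0.0742, 4.88% ± 1.64 and 2.31% ± 0.628 of that sum, and Cdh3 took 0.224% ± 0.0939, 0.701% ± 0.307 and 1.25% ± 0.208. The per-kb ratio of Cdh1 to Cdh2 was 1943, 1274 and 518 in the control libraries, 14.2, 30.1 and 18.8 in LATS1/2-KO, and 57.5, 41.6 and 32.3 in LATS1/2-Sox9-KO, with no overlap between groups. The per-kb ratio of Ctnna1 to Ctnnb1 was 0.513 ± 0.0474 in control, 0.893 ± 0.00398 in LATS1/2-KO and 0.924 ± 0.0917 in LATS1/2-Sox9-KO. These shares and ratios describe the libraries and were not tested.

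The genes whose log2 CPM was most like that of 3 of the genes over the 9 libraries were named from 11791 genes with a mean of at least 100 normalised counts. For Cdh1 they were Ddx54 (Pearson r = 0.972), Kat2a (0.969) and Atp13a1 (0.967). For Cdh3 they were Zdhhc12 (0.988), Tnfrsf23 (0.980) and Tchh (0.979), and for Ctnnb1 they were Cyp39a1 (0.967), Pdgfra (0.961) and Kdm7a (0.954). The 9 points share 3 genotypes, so these values describe a like pattern over genotypes and libraries, without a test.

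The wider families were read from lists of related genes. Each is set beside the 55.7% of all genes called in LATS1/2-KO and the 57.9% called in LATS1/2-Sox9-KO against control. Of 15 other cadherins, 6 were tested, 2 rose and 3 fell in LATS1/2-KO. Cdh10, a type II cadherin of the nervous system, rose from 15.3 ± 10.6 to 147 ± 6.15 normalised counts and was 264 ± 86.8 in LATS1/2-Sox9-KO (log2 fold changes 3.25 and 4.10). Cdh15, the cadherin of muscle, rose by 2.62 (SE 0.78) on the log2 scale in LATS1/2-KO. The control libraries alone did not carry Cdh10 or Cdh15 past the filter on low counts, so their p-values are not given. Both are among the 2 rises counted above. Cdh17, a cadherin of liver and intestine, fell from 82.3 ± 16.2 to 2.02 ± 2.12 normalised counts. The knockout libraries alone did not carry Cdh17 past the filter, so its p-value is not given, although the 3 falls include it. Cdh19 and Cdh24 fell too, with log2 fold changes of -1.52 and -1.37 (edgeR adjusted p = 0.0279 and 0.00268). The endothelial cadherin Cdh5, which did not pass the test, had 65.5 ± 15.5 and 118 ± 48.0 normalised counts in control and LATS1/2-KO. The median log2 fold change of the 6 was -0.26.

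Relatives of the 3 catenins moved in both directions. Of 7 relatives, 5 were tested, 2 rose and 2 fell in LATS1/2-KO, with a median of -0.32. Plakoglobin (Jup), the close relative of beta-catenin found at adherens junctions and desmosomes, had 41648, 38064 and 34634 normalised counts in control, 16181, 10212 and 17505 in LATS1/2-KO, and 21193, 18868 and 19120 in LATS1/2-Sox9-KO. All knockout libraries lay below all control libraries, and Jup fell in both, with log2 fold changes of -1.38 (SE 0.18, edgeR adjusted p = 0.000154) and -0.95 (SE 0.18, edgeR adjusted p = 0.00132). Ctnnal1, alpha-catulin, a relative of alpha-catenin, rose from 1003 ± 159 to 4594 ± 557 normalised counts in LATS1/2-KO and to 2011 ± 582 in LATS1/2-Sox9-KO. It was lower in LATS1/2-Sox9-KO than in LATS1/2-KO (log2 difference -1.19, SE 0.21, edgeR adjusted p = 0.0139). Among the relatives of delta-1 catenin, Arvcf rose from 1639 ± 293 to 3821 ± 1400 and 4154 ± 310 normalised counts, and Ctnnd2 fell from 496 ± 67.8 to 20.6 ± 9.11 and 9.74 ± 2.05 (edgeR adjusted p = 0.00263, 0.00139, 6.07e-06 and 2.08e-06). Pkp4, another of them, had a log2 fold change of -0.32 (SE 0.14, edgeR adjusted p = 0.0826) in LATS1/2-KO, fell in LATS1/2-Sox9-KO (log2 fold change -0.96, SE 0.14, edgeR adjusted p = 0.000296) and was lower there than in LATS1/2-KO (log2 difference -0.64, SE 0.14, edgeR adjusted p = 0.0315). Ctnna2 and Ctnna3 were not tested, at 6 and 5 counts at most in any library. In LATS1/2-Sox9-KO 2 of the 5 rose and 3 fell.

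Partners of the junction changed in both directions. Of 16 genes for nectins, afadin and cytoskeletal linkers, all tested, 7 rose and 5 fell in LATS1/2-KO (median log2 fold change 0.19), and 7 rose and 4 fell in LATS1/2-Sox9-KO. Nectins are adhesion receptors that seed adherens junctions beside the cadherins. Nectin1 fell from 4722 ± 719 normalised counts in control to 738 ± 228 in LATS1/2-KO (log2 fold change -2.68, edgeR adjusted p = 1.36e-05), and Nectin3 rose from 105 ± 29.5 to 1985 ± 1130 (4.24, edgeR adjusted p = 3.81e-05). Both were nearer to control in LATS1/2-Sox9-KO, at 1662 ± 184 and 492 ± 68.3 normalised counts, and both differed between the knockout groups (log2 differences 1.17 and -2.01, edgeR adjusted p = 0.0187 and 0.0210). Nectin2 and the scaffold gene Magi1 fell in LATS1/2-KO, with log2 fold changes of -1.08 and -0.99 (edgeR adjusted p = 0.00407 and 0.00131). Ajuba, a LIM protein that binds alpha-catenin, rose from 759 ± 84.1 to 7978 ± 1658 and 9502 ± 1779 normalised counts (edgeR adjusted p = 2.17e-06 and 8.79e-07). Actn1, alpha-actinin, an actin crosslinker, rose from 12077 ± 1087 to 48623 ± 11078 and 58324 ± 12820 (edgeR adjusted p = 2.81e-05 and 1.07e-05).

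**Figure D4:**
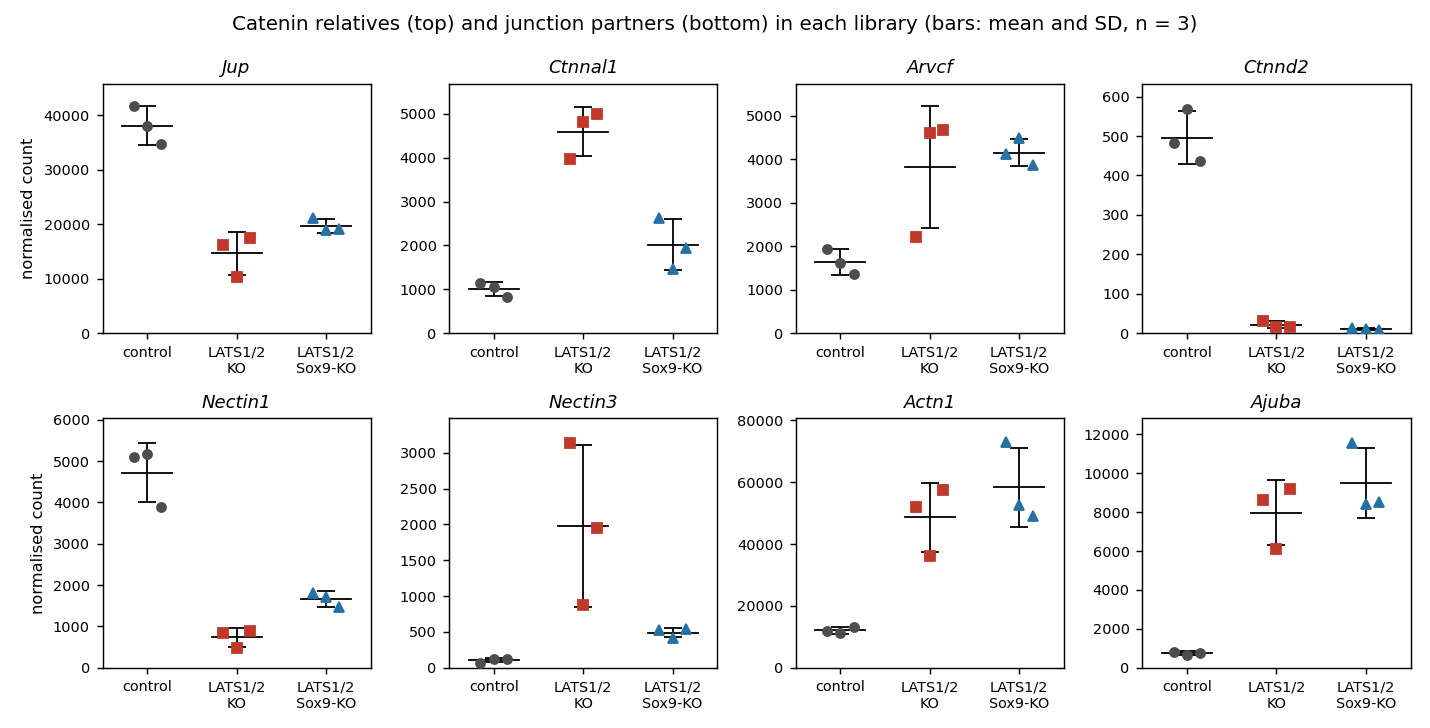
Normalised count (vertical axes, from 0) of 4 catenin relatives (top) and 4 junction partners (bottom) in each library of the 3 groups; points are libraries and bars are the mean and SD of 3. Jup, Ctnnd2 and Nectin1 are lower and Actn1 and Ajuba higher in every knockout library than in every control library, and Ctnnal1 and Nectin3 lie between control and LATS1/2-KO in the LATS1/2-Sox9-KO libraries.

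Transcription factors known to repress Cdh1 were mostly low in count. Of 8, all tested, 4 rose and 1 fell in LATS1/2-KO (median log2 fold change 1.13), and 5 rose and 1 fell in LATS1/2-Sox9-KO. Zeb1 went from 24.1 ± 9.57 normalised counts in control to 93.1 ± 32.3 and 164 ± 67.8 (log2 fold changes 1.94 and 2.76, edgeR adjusted p = 0.00534 and 0.000667). Zeb2 rose from 21.0 ± 10.7 to 87.8 ± 31.6 normalised counts in LATS1/2-KO (log2 fold change 2.05, edgeR adjusted p = 0.00450). Twist1 and Twist2 had few counts in control, at 3.18 ± 1.92 and 2.34 ± 1.99 normalised counts. Only knockout libraries carried them past the filter on low counts, so their p-values are not given, although the rises counted above include both. Twist1 had 46.1, 22.9 and 27.4 normalised counts in LATS1/2-KO and 2.78, 35.9 and 16.4 in LATS1/2-Sox9-KO, where library 1 lay within the control range. Twist2 had 12.0, 15.3 and 23.7 in LATS1/2-KO and 58.5, 64.8 and 30.1 in LATS1/2-Sox9-KO, all above control. Snai1 and Snai2 were not called, at 142 ± 99.0 and 26.8 ± 17.8 normalised counts in LATS1/2-KO against 123 ± 21.7 and 23.4 ± 21.9 in control. Tcf4, the one that fell, was also the most abundant of the 8, at 4457 ± 1608 and 2588 ± 136 normalised counts (log2 fold change -0.78, edgeR adjusted p = 0.00883). These factors are expressed by fibroblasts too, whose marker values are given above, and that part was not tested.

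Genes of E-cadherin turnover were split. Of 10, all tested, 2 rose and 3 fell in LATS1/2-KO (median log2 fold change 0.12), and 3 rose and 3 fell in LATS1/2-Sox9-KO. Adam10, the protease that sheds the E-cadherin ectodomain, fell from 31474 ± 8826 to 10403 ± 2574 and 8246 ± 485 normalised counts (log2 fold changes -1.60 and -1.93, edgeR adjusted p = 0.000170 and 4.61e-05). The ubiquitin ligase gene Rnf43 and the endocytic adaptor gene Numb fell in LATS1/2-KO, with log2 fold changes of -1.31 and -0.59, and the clathrin adaptor gene Ap2m1 rose by 0.46 (edgeR adjusted p = 0.000512, 0.00111 and 0.00233). Mmp7, matrilysin, was at 0 counts in all 3 control libraries, where up to 3 counts a library could have been missed. It had 21.1, 24.6 and 45.6 normalised counts in LATS1/2-KO and 0, 9.96 and 13.7 in LATS1/2-Sox9-KO. Only knockout libraries carried it past the filter on low counts, so its p-value is not given, although the 2 rises in LATS1/2-KO include it.

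Regulators and partners of beta-catenin were mostly lower in both knockout groups. Of 15 genes of the destruction complex, its inhibitors and the nuclear partners, all tested, none rose and 13 fell in LATS1/2-KO (median log2 fold change -0.60), and 11 fell and none rose in LATS1/2-Sox9-KO. Across all genes 27.1% and 28.7% were called lower in the same comparisons. The scaffold gene Apc fell from 20496 ± 4122 to 9499 ± 159 and 7720 ± 549 normalised counts (log2 fold changes -1.11 and -1.41, edgeR adjusted p = 0.000103 and 1.96e-05). Tcf7l2, a DNA-binding partner of beta-catenin, fell from 3287 ± 1089 to 753 ± 106 and 425 ± 50.6 (-2.13 and -2.95, edgeR adjusted p = 6.28e-05 and 8.33e-06). Apc2, a relative of Apc, and Pygo1, a nuclear adaptor, fell from 117 ± 14.4 and 91.8 ± 23.0 to 13.1 ± 10.8 and 22.5 ± 12.8 normalised counts in LATS1/2-KO (edgeR adjusted p = 0.00147 and 0.00745). Apc was picked for naming after its values were seen, and the other 3 by the size of their fall.

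Genes used as readouts of beta-catenin and TCF transcription did not move as one. Of 12, 8 were tested, and in LATS1/2-KO 4 rose and 1 fell (median log2 fold change 1.02). Nkd2, a feedback inhibitor of Wnt signalling, had 30.2, 22.7 and 6.22 normalised counts in control, 4768, 2793 and 3671 in LATS1/2-KO, and 428, 1020 and 2269 in LATS1/2-Sox9-KO. Every knockout library was above every control library, and the log2 fold changes were 7.55 (SE 0.73) and 5.95 (SE 0.70). The control libraries alone did not carry Nkd2 past the filter on low counts, so its p-values are not given. The 4 rises in LATS1/2-KO include it. Sp5 had 0, 3.40 and 0 normalised counts in control and 52.2, 11.9 and 49.2 in LATS1/2-KO. Only knockout libraries carried it past the filter on low counts, so its p-value is not given, although the 4 rises in LATS1/2-KO include it. Tcf7 rose from 301 ± 53.1 to 876 ± 366 in LATS1/2-KO and was 300.4 ± 41.0 in LATS1/2-Sox9-KO, where it differed from LATS1/2-KO (log2 difference -1.54, edgeR adjusted p = 0.0172). Lgr5, a Wnt-induced receptor of stem cells, fell from 121 ± 20.1 to 19.9 ± 12.8 normalised counts (log2 fold change -2.60, edgeR adjusted p = 0.0106). In LATS1/2-Sox9-KO 4 of the 8 rose and 1 fell, and Axin2, a widely used readout, was called higher in LATS1/2-Sox9-KO (edgeR adjusted p = 0.0445) and not in LATS1/2-KO (edgeR adjusted p = 0.0969), while the knockout groups did not differ by the test (edgeR adjusted p = 0.804). Axin2 had 44.4 ± 23.6, 96.0 ± 50.7 and 116 ± 19.8 normalised counts in the 3 groups.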

How the data were processed

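The deposited file held read counts per Ensembl gene. Per the paper's methods and the submitters' processing notes, the authors aligned reads to mm10 with STAR 2.6.0c and counted uniquely aligned proper pairs on the same strand, mitochondrial genes left out, with featureCounts (Subread 1.6.2), although the library kit named does not mark strand. The counts were neither normalized nor pooled when deposited. Gene positions came from GENCODE M21, on the same build.

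Groups came from the sample labels. All 9 libraries were fitted with 3 group means in edgeR 4.0.16 (R 4.3.3, TMM, filterByExpr, quasi-likelihood test, two-sided), with Benjamini-Hochberg adjustment over 19357 genes and a call at an adjusted p of at most 0.05. The fit was tested on simulated data. DESeq2 1.42.0, other normalizations and filters, a test against a fold change of 2, a replicate block and leaving out each library were the alternatives. No 2 libraries of a group agreed within sampling noise (chi-square per gene from 17.9 to 142).

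The 10 genes and all lists were chosen with earlier results of these data known. Named from each list of related genes were its 3 largest called rises and falls in LATS1/2-KO, and further every catenin relative, from each cell type's markers only the most abundant and those at 0 throughout, and the 3 genes most like Cdh1, Cdh3 and Ctnnb1. Zeb1, Snai1, Snai2, Cdh5, Axin2, Apc, Trp63, Col3a1, Kdr and the luminal and adipocyte markers named beyond the rule were added after their values were seen.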

Additional observations from a re-analysis of the deposited data

How the results depend on the processing

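Among the log2 fold changes of the tested members under the alternatives, 329 kept their direction and their side of the threshold, 9 lost and 5 gained a call, and 14 changed sign. Against a fold change of 2, edgeR's glmTreat called 2 of the members higher and 0 lower in LATS1/2-KO. It called 3 higher and 0 lower in LATS1/2-Sox9-KO against control, and 0 in either direction between the knockout groups. It called 4005, 4708 and 32 genes in all in the 3 comparisons. DESeq2 called 2400 genes between the knockout groups, and 1 member (Cdh3), as did edgeR without a filter. With a replicate block, 0 members were called lower in LATS1/2-KO, since Cdh1 had an adjusted p of 0.0520. The replicate numbers did not pair the libraries, as correlations of same-numbered deviations ranged from -0.0657 to 0.170 and not every library correlated best with its own number, and the block changed no other member's call. Leaving out 1 library gave 4 to 5 members called higher and 0 to 1 lower in LATS1/2-KO, 4 and 0 in LATS1/2-Sox9-KO against control, and 0 to 1 and 0 between the knockout groups. All genes called then ranged from 9526 to 11265, 9801 to 10737 and 249 to 2044.

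Some values changed sign without passing a threshold, not all of them near 0, and the cause was not tested. In LATS1/2-KO, the log2 fold change of Ctnnb1 was 0.031 with upper-quartile factors, 0.00082 with no filter, 0.013 with only the 2 groups compared, 0.0054 without control library 1 and 0.031 without LATS1/2-KO library 3 (range -0.036 to 0.031 with 1 library left out). That of Ctnnd1 was 0.0062 without LATS1/2-KO library 3 (range -0.31 to 0.0062). In LATS1/2-Sox9-KO against control, that of Cdh13 was -0.057, -0.047 and -0.29 without control library 1, control library 2 or LATS1/2-Sox9-KO library 1 (range -0.29 to 0.87). Between the knockout groups, that of Ctnnd1 was -0.024 with upper-quartile factors and -0.022 and -0.071 without LATS1/2-KO library 2 or 3 (range -0.071 to 0.24), and that of Cdh11 was -0.18 and -0.52 without LATS1/2-KO library 3 or LATS1/2-Sox9-KO library 3 (range -0.52 to 0.83). The Cdh1 share of cadherin RNA was 98.9%, 89.7% and 93.9% in control, LATS1/2-KO and LATS1/2-Sox9-KO from counts not divided by length, 99.0%, 90.4% and 94.2% with the longest transcript, and ranged over 99.3 to 99.6%, 92.8 to 94.9% and 95.6 to 96.5% with 1 library left out.

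Cdh4, Cdh6 and Cdh11 rest on few counts. The number of libraries limits every p-value, and the test with at least 10 counts in every library could not be made for Cdh11.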

Other observations

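Markers of further cell types were read once for the sorted cells, with the most abundant of each list taken over all 9 libraries and the counts set beside the 55.7% of all genes called in LATS1/2-KO. Of 5 pericyte markers tested 1 rose and 3 fell in LATS1/2-KO against control, the comparison used throughout, and Notch3, the most abundant and also a luminal gene, fell from 19486 ± 2601 to 3006 ± 1297 normalised counts. Of 7 immune markers tested 1 rose, Csf1r, which went from 158 ± 43.0 to 2310 ± 529 normalised counts, while the T-cell gene Cd3e was at 0 in all libraries. Of 6 adipocyte markers 4 rose and 1 fell, and their median log2 fold change was 4.73. Fabp4 rose from 269, 171 and 280.0 to 477, 2676 and 1208 normalised counts, and Adipoq, from 0, 0 and 3.73 to 2.01, 294.0 and 163, and Cidec, from 0, 1.13 and 0 to 0, 394 and 209, rose through LATS1/2-KO libraries 2 and 3. Lep was at 0 in control and had 5.01, 107.6 and 55.6. Only knockout libraries carried Adipoq, Cidec and Lep past the filter on low counts. Lipe, the most abundant over all libraries, fell from 4823 ± 991 to 797 ± 240. Of 5 Schwann and glial markers tested none rose and 3 fell, with Mbp the most abundant at 4376 ± 1119 and 5236 ± 888, and the list shares Cdh19 with the other cadherins. Of 2 erythroid markers tested 1 fell, Alas2, from 114 ± 8.16 to 8.56 ± 6.04 normalised counts. The endothelial list shares Cdh5 with the other cadherins. The part of these cell types in the cadherin results was not tested.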
